A study of Homo sapiens with 24 samples.

Results

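The centrosome genes measured here were the CEP genes (centrosomal proteins), the 8 HAUS genes, which encode the subunits of the augmin complex, and LRRCC1 and MNS1. They were found by symbol in 1 table of array values, by the letters CEP with a number and at most a letter suffix, HAUS1 to HAUS8, and the last pair by name. This gave 47 genes, of which 37 were CEP genes and 8 HAUS genes, among 25575 rows and 25161 gene symbols. Each of the 47 had 1 row. The rule used only names, and the genes were proposed with earlier results of these arrays known.

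The 24 Clariom D arrays measured RNA of the Burkitt lymphoma line DG-75 and of SU-DHL-4, which derives from a diffuse large B-cell lymphoma, with 3 replicates in each of 8 groups. Cells of each line received DMSO, the vehicle of the drugs, or 1 µM of the SYK inhibitor Entospletinib (Ento), or 0.01 µM of AZD5153 (AZD), a bivalent inhibitor of BET proteins, or both (Ento+AZD), for 72 h. SYK is a kinase of the B-cell receptor pathway, and BET proteins bind acetylated histones and promote transcription. The replicates were labelled as biological, each disease is represented by 1 line, and the labels name no genetic change made in either line. All values are log2 expression after robust multi-array averaging, so that a difference of 1 is a 2-fold change, and levels of different genes were not set against each other except in a check of cell type markers.

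The 24 arrays had medians between 4.89 and 5.14, and replicates of a group correlated between 0.981 and 0.992 across all rows. The B-cell markers, 7 genes with PAX5 among them, had a mean level of 9.69 to 10.28 in the SU-DHL-4 arrays and 8.40 to 9.33 in the DG-75 arrays, while 4 T-cell markers lay between 2.49 and 3.04. In SU-DHL-4, replicate 2 of Ento and of Ento+AZD lay below the other replicates of their groups for many of the 47 genes, with a mean over the 47 of 6.07 against 6.69 and 6.70 under Ento, and 6.05 against 6.38 and 6.40 under Ento+AZD. Replicate 1 of AZD was also lowest in its group, at 6.03 against 6.33 and 6.42 in SU-DHL-4 and 6.24 against 6.67 and 6.56 in DG-75. The SU-DHL-4 array of this pair had the lowest array median, 4.89. Ento replicate 3 of DG-75 had 6.76 against 7.08 and 7.09. In bulk RNA, fewer cells that transcribe a gene and less RNA per cell cannot be told apart.

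Centrosomes organise microtubules and are built around a pair of centrioles, which are copied once per cell cycle in step with DNA replication. New centrioles grow next to old ones on a scaffold that includes CEP152, CEP192 and CEP63, under the control of the kinase PLK4. In mitosis the augmin complex binds spindle microtubules and brings γ-tubulin to their sides, so that new microtubules branch from existing ones. CEP55 acts at the end of division, at the midbody between daughter cells. The older centriole carries appendages through which it can dock at the membrane and form a cilium, a function that lymphocytes rarely use. Several of these genes are transcribed periodically, with E2F factors acting near the start of S phase. NF-Y binds CCAAT boxes, and DREAM or MuvB complexes bind CHR elements, in genes expressed in later phases.

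Because the 47 genes were read for common change, the 250 bases before the start of each gene were searched for 3 motifs on both strands. The motifs were the CHR element TTTGAA, the E2F core TTCCCGC or TTGGCGC, and the CCAAT box CCAAT. The reverse of CCAAT can overlap TTGGCGC. RefSeq (GRCh38.p14) gave such a sequence for 41 of the 47 genes. Those without one included LRRCC1 and CEP295NL. The 4 printed below belong to the genes with the smallest p under Ento+AZD over both lines among those with a sequence to show. They run 5′ to 3′ on the strand of the gene, which is the minus strand for MNS1 (chr15:56465138-56465387), HAUS4 (chr14:22957091-22957340) and CEP152 (chr15:48811070-48811319) and the plus strand for HAUS1 (chr18:46104135-46104384). Capitals mark every match on either strand.
MNS1: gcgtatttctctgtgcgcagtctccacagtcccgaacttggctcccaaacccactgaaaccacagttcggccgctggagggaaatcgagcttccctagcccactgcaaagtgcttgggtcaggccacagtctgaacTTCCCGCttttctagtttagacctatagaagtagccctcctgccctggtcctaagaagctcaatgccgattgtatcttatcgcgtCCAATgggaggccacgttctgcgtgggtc
HAUS4: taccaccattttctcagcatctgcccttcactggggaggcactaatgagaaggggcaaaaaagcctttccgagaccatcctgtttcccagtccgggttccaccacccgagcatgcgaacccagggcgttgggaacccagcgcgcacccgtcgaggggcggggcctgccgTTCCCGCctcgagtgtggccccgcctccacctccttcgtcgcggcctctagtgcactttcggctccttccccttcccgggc
CEP152: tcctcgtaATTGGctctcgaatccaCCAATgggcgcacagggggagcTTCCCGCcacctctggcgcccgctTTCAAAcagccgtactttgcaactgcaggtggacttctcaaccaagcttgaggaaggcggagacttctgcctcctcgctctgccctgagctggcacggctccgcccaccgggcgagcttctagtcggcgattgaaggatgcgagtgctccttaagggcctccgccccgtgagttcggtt
HAUS1: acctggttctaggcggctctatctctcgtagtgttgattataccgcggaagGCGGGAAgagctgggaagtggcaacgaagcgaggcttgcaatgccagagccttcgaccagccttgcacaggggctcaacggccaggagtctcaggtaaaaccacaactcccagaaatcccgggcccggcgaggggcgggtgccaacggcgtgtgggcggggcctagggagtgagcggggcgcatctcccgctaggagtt

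All 4 sequences held 1 E2F core, written GCGGGAA on the opposite strand in HAUS1. MNS1 also held 1 CCAAT box close to the gene start, and CEP152 held 2 CCAAT boxes and 1 CHR element, while HAUS4 and HAUS1 held neither. Over the 41 sequences, 16 held an E2F core (39%), against 10.6% of 15842 sequences of protein-coding genes and 7.95% of all 27305. A CCAAT box was present in 19 of 41 (46.3%), against 34.5% of the protein-coding genes, and a CHR element in 8 of 41 (19.5%), against 10.8%. Among the 14 sequences of genes that fell under Ento+AZD over both lines (below), 7 held an E2F core (50%), as did 9 of the 27 others (33.3%). A match is a description of letters and shows neither that a factor bound there nor that it acted.

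Over both lines, AZD and Ento+AZD lowered part of these genes and raised none. A gene is said here to have passed where the Benjamini-Hochberg adjusted p of limma over all rows was under 0.05, and to be called where the change was also above 1 on the log2 scale. Under Ento+AZD 18 of the 47 genes passed, all lower, and 7 were called: LRRCC1, MNS1, HAUS4, CEP55, HAUS1, CEP41 and CEP295NL. The background in that comparison was 8.49% of all rows passing, 7.03% lower and 1.46% higher, and 0.856% called. Under AZD alone 16 genes passed, all lower, against 4.66% of all rows passing, 4.29% lower and 0.371% higher. The 4 called were LRRCC1, MNS1, HAUS4 and CEP55, against 0.254% of all rows. Ento alone gave 0 genes past the threshold, against 0.00782% of all rows, and 3 genes were lower at an unadjusted p under 0.05, against 4.39% of all rows. With the prior variance following the mean, limma called LRRCC1 lower under Ento in SU-DHL-4.

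The median change of the 47 genes was -0.39 under AZD and -0.28 under Ento+AZD, beside -0.07 for all rows in each comparison, and -0.08 under Ento, beside -0.04. Of the 47, 44 lay below 0 under AZD and 41 under Ento+AZD, against 64.9% and 65.5% of all rows. When the deposited table was quantile normalized these became 40 and 34, and with each array's median subtracted 41 and 35. The median of the 47 genes was then -0.27 and -0.30 under AZD, and -0.15 and -0.18 under Ento+AZD, in the same order of scalings. The median of all rows then moved by up to 0.11, from -0.07 to 0.04 under Ento+AZD with medians subtracted. Under AZD 8 genes passed without SU-DHL-4 DMSO replicate 2 or replicate 3, 9 without DG-75 AZD replicate 1, and 2 were called without the first of these. The genes past the threshold fell to 10 under either scaling for AZD, and to 15 and 13 for Ento+AZD. AZD and Ento+AZD were compared with the same DMSO arrays, so that their values stand side by side and do not support each other.

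**Figure D1:**
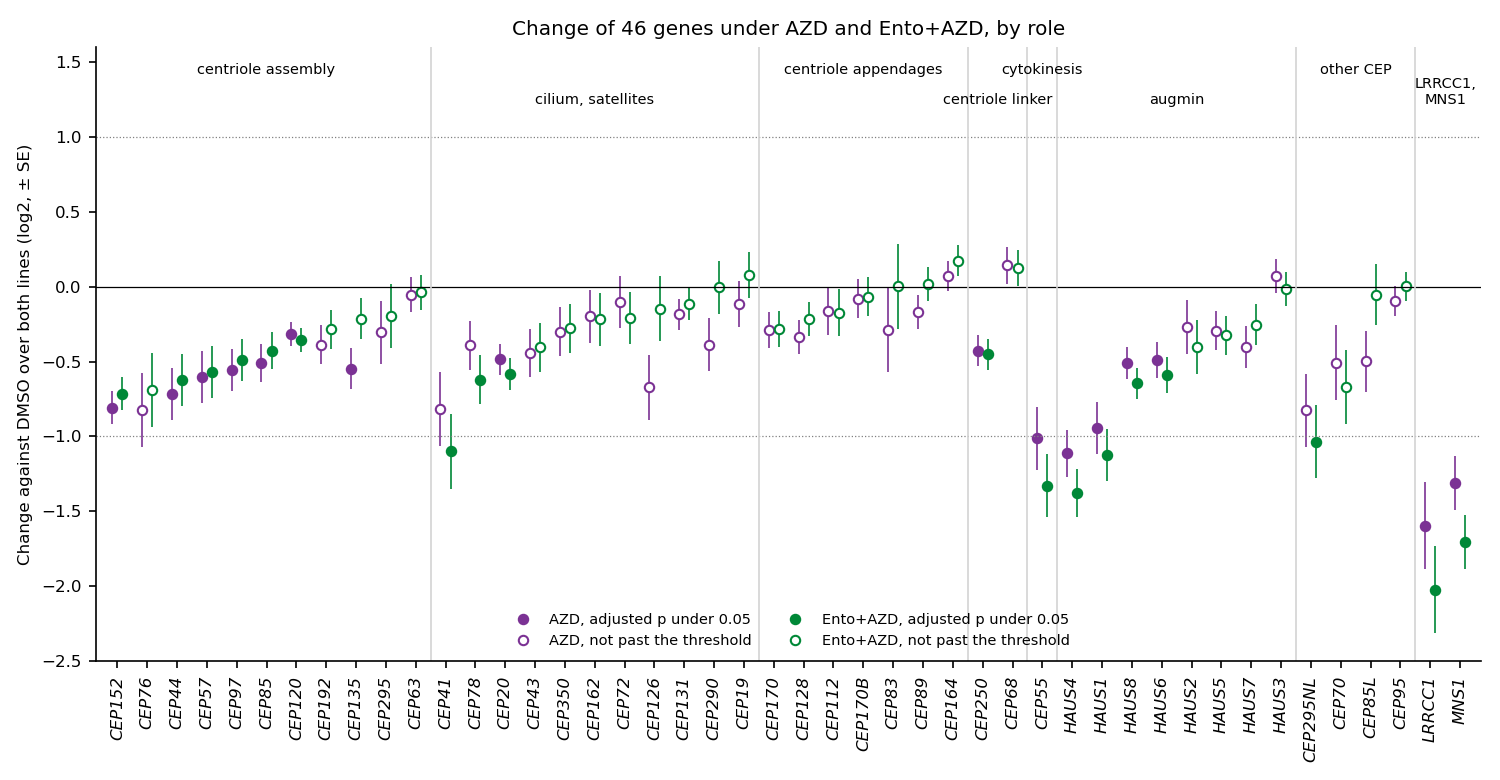
Change against DMSO over both lines of 46 of the 47 genes (log2, points with SE bars from limma on 24 arrays), grouped by role, with filled points for an adjusted p under 0.05 and dotted lines at a 2-fold change. The filled points all lie below 0, with LRRCC1 lowest at -2.02 under Ento+AZD, and no centriole appendage gene is filled.

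LRRCC1, a leucine-rich coiled-coil protein of the distal centriole, had the largest change of the 47 genes over both lines under each treatment. Within DG-75 the change of MNS1 was larger, at -1.90 against -1.77 under Ento+AZD. In SU-DHL-4 the level of LRRCC1 was 6.21, 5.57 and 6.64 under DMSO, 5.19, 3.54 and 5.29 under Ento, 3.75, 4.16 and 5.26 under AZD, and 4.14, 3.18 and 4.28 under Ento+AZD. In DG-75 it was 7.15, 6.80 and 7.03 under DMSO, 7.07, 7.30 and 6.51 under Ento, 4.95, 6.10 and 5.62 under AZD, and 4.96, 4.64 and 6.06 under Ento+AZD. Each array with AZD, alone or combined, lay below all DMSO arrays of its line, and so did each Ento array of SU-DHL-4, whereas Ento and DMSO overlapped in DG-75. Over both lines LRRCC1 fell by 1.6 ± 0.29 (SE) on the log2 scale under AZD (adjusted p = 0.00398) and by 2.02 ± 0.29 under Ento+AZD (adjusted p = 0.000138), which is 3.02-fold and 4.07-fold lower. Under Ento the difference was -0.75 ± 0.29 (adjusted p = 0.708).

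MNS1, a coiled-coil protein of motile cilia and sperm flagella, had the smallest p over both lines under Ento+AZD. Its SU-DHL-4 values were 5.51, 5.27 and 6.42 under DMSO, 6.0, 4.81 and 6.47 under Ento, 4.57, 4.28 and 5.44 under AZD, and 4.28, 3.12 and 5.25 under Ento+AZD. In DG-75 they were 7.92, 8.0 and 7.30 under DMSO, 7.91, 8.22 and 7.23 under Ento, 5.63, 6.68 and 5.95 under AZD, and 5.70, 5.85 and 5.97 under Ento+AZD. In DG-75 all 6 arrays with AZD lay below all 6 without it, while in SU-DHL-4 the third AZD array overlapped DMSO and the Ento+AZD arrays did not. Over both lines the fall was 1.31 ± 0.18 under AZD (adjusted p = 0.000762) and 1.71 ± 0.18 under Ento+AZD (adjusted p = 2.32e-05), 3.26-fold lower. The difference under Ento was 0.04 ± 0.18 (adjusted p = 0.988). In RefSeq MNS1 overlaps TEX9, and without probe identifiers the signal of overlapping genes cannot be separated.

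**Figure D2:**
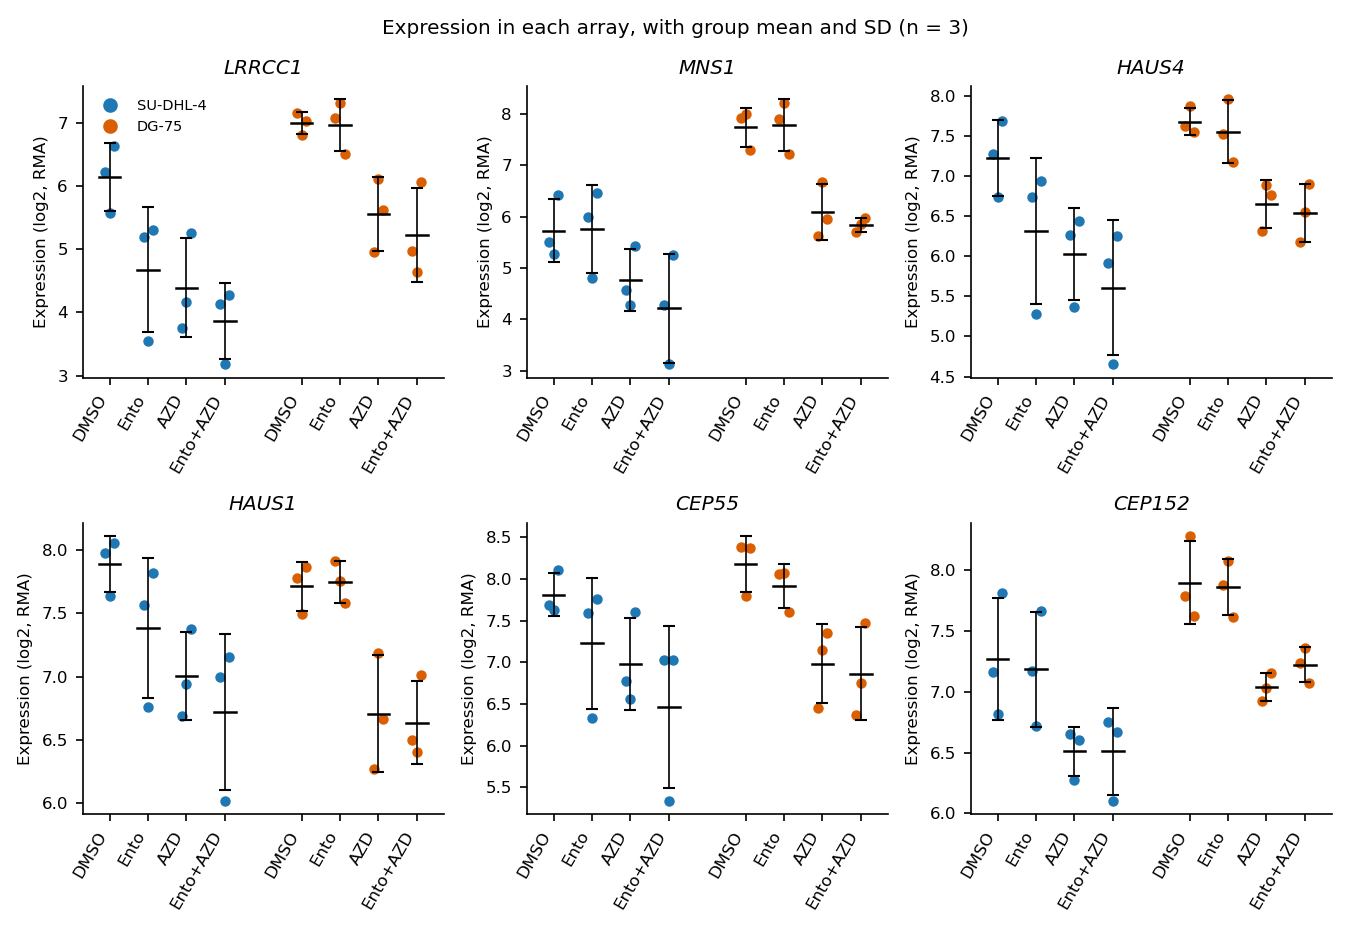
Expression (log2) of LRRCC1, MNS1, HAUS4, HAUS1, CEP55 and CEP152 in each of the 24 arrays, by line and treatment, with group mean and SD (n = 3). In DG-75 the AZD and Ento+AZD points lie below the DMSO points in all 6 panels, while in SU-DHL-4 the second Ento and Ento+AZD arrays lie lowest in their groups.

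Of the augmin subunits, HAUS1, HAUS4, HAUS6 and HAUS8 passed under AZD and under Ento+AZD, and HAUS2, HAUS3, HAUS5 and HAUS7 did not, which makes 4 of 8 in each, against 4.66% and 8.49% of all rows. The median change of the 8 was -0.45 under AZD and -0.49 under Ento+AZD, with a range of -1.38 to -0.02 in the latter. HAUS4 had values of 7.27, 6.73 and 7.68 under DMSO in SU-DHL-4, 6.26, 5.37 and 6.44 under AZD, and 5.92, 4.65 and 6.25 under Ento+AZD. In DG-75 the values were 7.62, 7.87 and 7.55, then 6.32, 6.89 and 6.76, then 6.17, 6.55 and 6.89. No AZD or Ento+AZD array reached the lowest DMSO array of its line. Over both lines HAUS4 was 2.16-fold lower under AZD (adjusted p = 0.00103) and 2.6-fold lower under Ento+AZD (adjusted p = 3.23e-05).

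HAUS1 had 7.98, 7.64 and 8.06 under DMSO in SU-DHL-4 and 6.99, 6.02 and 7.16 under Ento+AZD. In DG-75 it had 7.78, 7.50 and 7.87 under DMSO and 6.5, 6.40 and 7.01 under Ento+AZD. The groups did not overlap in either line, and the fall over both lines was 1.12 ± 0.17 (adjusted p = 0.00026). HAUS8, which links augmin to microtubules, was 6.68, 6.68 and 7.35 under DMSO and 6.40, 6.08 and 6.70 under Ento+AZD in SU-DHL-4, where the groups overlapped. In DG-75 it was 7.31, 7.47 and 7.30 under DMSO and 6.53, 6.53 and 6.67 under Ento+AZD, without overlap. It fell by 0.65 ± 0.11 over both lines (adjusted p = 0.000456). HAUS6, the subunit known to contact the γ-tubulin ring complex through NEDD1, fell by 0.59 ± 0.12 (adjusted p = 0.00284), with 8.62, 8.63 and 9.12 under DMSO against 8.28, 7.95 and 8.33 in SU-DHL-4, and 9.64, 9.71 and 9.51 against 9.0, 9.04 and 9.11 in DG-75, where neither pair of groups overlapped. Under AZD it passed in 8 of 12 fits that left out 1 array. HAUS2, HAUS3, HAUS5 and HAUS7 had changes between -0.40 and -0.02 under Ento+AZD. Subunits of 1 complex therefore differed in their values, but the difference between subunits was not tested.

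CEP55, which recruits the membrane-cutting machinery in cytokinesis, was 7.69, 7.63 and 8.11 under DMSO in SU-DHL-4, 6.78, 6.56 and 7.60 under AZD, and 7.03, 5.34 and 7.03 under Ento+AZD. In DG-75 it was 8.38, 7.79 and 8.37 under DMSO, 6.45, 7.14 and 7.35 under AZD, and 6.37, 6.75 and 7.47 under Ento+AZD. All arrays with AZD lay below all DMSO arrays of their line. CEP55 fell by 1.01 ± 0.21 under AZD (adjusted p = 0.00842) and by 1.33 ± 0.21 under Ento+AZD (adjusted p = 0.000327), and 12 of 12 fits that left out 1 array kept it past the threshold in each comparison. Under AZD its change was just past 2-fold, and 8 of those 12 fits called it.

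Among 11 genes of centriole assembly and its scaffold, 7 passed under AZD and 6 under Ento+AZD, against 4.66% and 8.49% of all rows. Their medians were -0.55 and -0.43, beside -0.07 for all rows in each comparison. CEP152, which brings PLK4 to the centriole, was 7.17, 6.82 and 7.81 under DMSO in SU-DHL-4, 6.65, 6.28 and 6.60 under AZD, and 6.76, 6.10 and 6.67 under Ento+AZD. In DG-75 it was 7.79, 8.28 and 7.63, then 6.93, 7.03 and 7.16, then 7.24, 7.36 and 7.07. None of the 12 arrays with AZD reached a DMSO array of its line, and the fall was 0.81 ± 0.11 under AZD (adjusted p = 0.000752) and 0.72 ± 0.11 under Ento+AZD (adjusted p = 0.000244). CEP120, which acts in centriole elongation, fell by 0.35 ± 0.08 under Ento+AZD (adjusted p = 0.00795), with 7.80, 7.60 and 7.94 under DMSO against 7.34, 7.31 and 7.35 in SU-DHL-4, and 7.57, 7.70 and 7.65 against 7.43, 7.35 and 7.35 in DG-75. These groups did not overlap in either line. CEP44, CEP57, CEP85, which binds STIL, and CEP97, which caps centrioles with CCP110, also passed in both comparisons with changes of -0.72 to -0.43. Each of these 4 passed in 5 or fewer of 12 fits that left out 1 array under Ento+AZD, and under AZD in between 3 and 7. CEP135, a cartwheel protein, passed under AZD with a change of -0.55 ± 0.14 (adjusted p = 0.0255), and had a difference of -0.21 ± 0.14 under Ento+AZD (adjusted p = 0.412). With 1 array left out, CEP135 passed under AZD in 6 of 12 fits and CEP120 in 5, while CEP120 passed in all 12 under Ento+AZD. CEP63, CEP76, CEP192 and CEP295 passed in neither, and CEP76 had -0.82 and -0.69 with an SE of 0.25.

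Among 12 genes of the cilium and the centriolar satellites, 1 passed under AZD (8.33%) and 3 under Ento+AZD (25%), against 4.66% and 8.49% of all rows. CEP41, which promotes tubulin glutamylation in cilia, was 6.21, 6.16 and 6.62 under DMSO in SU-DHL-4 and 5.68, 4.63 and 5.60 under Ento+AZD. In DG-75 it was 6.75, 5.93 and 6.68 against 5.13, 4.83 and 5.90. The groups were barely apart in DG-75 and further apart in SU-DHL-4, and the fall over both lines was 1.10 ± 0.25 (adjusted p = 0.00675), while under AZD the difference was -0.82 ± 0.25 (adjusted p = 0.0627). CEP20, a small satellite protein, was 8.71, 8.79 and 9.12 under DMSO against 8.37, 8.21 and 8.40 under Ento+AZD in SU-DHL-4, and 8.78, 8.79 and 8.84 against 8.06, 8.27 and 8.21 in DG-75. It fell by 0.49 ± 0.11 under AZD (adjusted p = 0.0107) and by 0.58 ± 0.11 under Ento+AZD (adjusted p = 0.00108), with no overlap in the latter. CEP78 passed under Ento+AZD alone, at -0.62 ± 0.17 (adjusted p = 0.0207), and in 7 of 12 fits that left out 1 array. The other 9, with CEP19, CEP43, CEP126 and CEP290 among them, passed in neither, and their changes under Ento+AZD lay between -0.41 and 0.08.

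The 7 genes of the centriole appendages, CEP83, CEP89, CEP112, CEP128, CEP164, CEP170 and CEP170B, passed in neither comparison, where 4.66% and 8.49% of all rows did. Their changes lay between -0.34 and 0.07 under AZD and between -0.28 and 0.17 under Ento+AZD, with medians of -0.17 and -0.07. A p that misses the threshold does not show that they were unaffected, and CEP83 had an SE of 0.28. CEP250, which tethers the 2 centrioles at their proximal ends, fell by 0.43 ± 0.10 under AZD (adjusted p = 0.0198) and by 0.45 ± 0.10 under Ento+AZD (adjusted p = 0.00761). With 1 array left out it passed in 7 of 12 fits under AZD and in all 12 under Ento+AZD. Its values were 5.98, 5.83 and 5.98 under DMSO against 5.37, 5.29 and 5.42 under Ento+AZD in SU-DHL-4, and 5.95, 5.84 and 6.08 against 5.67, 5.73 and 5.46 in DG-75, with no overlap. CEP68, the other linker gene, had 0.14 ± 0.12 and 0.12 ± 0.12.

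CEP70, CEP85L, CEP95 and CEP295NL had no role assigned here. Of these 4, CEP295NL, which resembles the start of CEP295, passed under Ento+AZD over both lines, at -1.04 ± 0.24 (adjusted p = 0.00954). The values came from DG-75, with 7.49, 7.61 and 7.51 under DMSO, 6.85, 7.08 and 6.37 under Ento, 5.82, 5.92 and 6.21 under AZD, and 5.80, 5.37 and 6.35 under Ento+AZD. In SU-DHL-4 the levels were lower and overlapped, with 4.40, 4.81 and 4.46 under DMSO, 5.01, 4.18 and 4.17 under AZD, and 4.63, 4.12 and 3.79 under Ento+AZD. The difference between the lines in the AZD response was 1.45 ± 0.37 (unadjusted p = 0.000992, adjusted p = 0.316), so that it did not pass. CEP295NL lies within TIMP2 in RefSeq, which was not analysed here, and its signal cannot be assigned to 1 of the 2 genes.

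Within SU-DHL-4, 6 of the 47 genes passed under Ento+AZD against 2.36% of all rows, and 5 of them were called against 1.19%: LRRCC1, HAUS4, MNS1, CEP55 and HAUS1, with CEP152 passing below 2-fold. Under AZD 2 were called, LRRCC1 and HAUS4, against 0.18%, and under Ento 0 passed, against 0.0547%. LRRCC1 fell by 2.27 ± 0.29 under Ento+AZD (adjusted p = 0.00536) and by 1.75 ± 0.29 under AZD (adjusted p = 0.0396). The counts rested on single arrays. Under AZD 0 genes were called without any 1 of DMSO replicates 1 to 3 or AZD replicates 1 and 3, and 4 without AZD replicate 2, and under Ento+AZD 2 were called without DMSO replicate 2, and 3 without Ento+AZD replicate 2 or without replicate 3. Under either other scaling 0 were called for AZD. Without the term for replicate number, 0 of the 47 genes were called in SU-DHL-4.

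Within DG-75, 8 genes passed under Ento+AZD against 2.39% of all rows and 7 were called against 0.833%: LRRCC1, MNS1, HAUS4, HAUS1, CEP55, CEP70 and CEP295NL, with HAUS8 below 2-fold. Under AZD 2 were called, MNS1 and CEP295NL, against 0.18%, and under Ento 0 passed, against 0.00391%. MNS1 fell by 1.90 ± 0.24 under Ento+AZD (adjusted p = 0.0148) and LRRCC1 by 1.77 ± 0.37 (adjusted p = 0.035). Under Ento+AZD 0 were called without DMSO replicate 1 or without Ento+AZD replicate 1, 1 without DMSO replicate 2 or without DMSO replicate 3, and 2 without Ento+AZD replicate 2, and with array medians subtracted 3. Under AZD 0 were called without any 1 of the 6 arrays and under either other scaling. CEP70, which binds γ-tubulin, was 7.91, 7.62 and 7.84 under DMSO and 6.47, 6.35 and 7.26 under Ento+AZD in DG-75, a fall of 1.09 ± 0.23 (adjusted p = 0.0383).

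More of the genes lay below DMSO without overlap than passed. In SU-DHL-4 the AZD arrays lay below all DMSO arrays for 20 of 47 genes, against 12.9% of all rows, and the Ento+AZD arrays for 19, against 16%. In DG-75 these counts were 22, against 14.6%, and 24, against 14%. Under Ento they were 3 in SU-DHL-4, against 9.33%, and 1 in DG-75, against 3.56%. In the other direction, above all DMSO arrays, SU-DHL-4 had 0 genes under Ento against 4.05%, 0 under AZD against 2.82% and 1 under Ento+AZD, CEP126, against 4.84%. DG-75 had 3 under Ento, CEP135, CEP95 and HAUS3, against 3.09%, and CEP68 alone under AZD, against 4.5%, and under Ento+AZD, against 4.79%. The genes above DMSO are named after their values were seen. The 2 lines share no arrays. The changes of the 47 genes in one line correlated with those in the other with a Pearson r of 0.118 under Ento, 0.621 under AZD and 0.745 under Ento+AZD, as a description across genes, which are not independent of each other. Under AZD 41 genes were lower in both lines (87.2%), against 42.4% of all rows, and under Ento+AZD 35 (74.5%), against 43.8%. These 2 counts were not repeated under the other scalings. Under Ento+AZD the genes below 0 went from 41 to 30 in SU-DHL-4 and from 40 to 35 in DG-75 after quantile normalization. With array medians subtracted they were 28 and 35. Under AZD they went from 45 to 38 under either scaling in SU-DHL-4, and from 41 to 37 and 39 in DG-75.

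**Figure D3:**
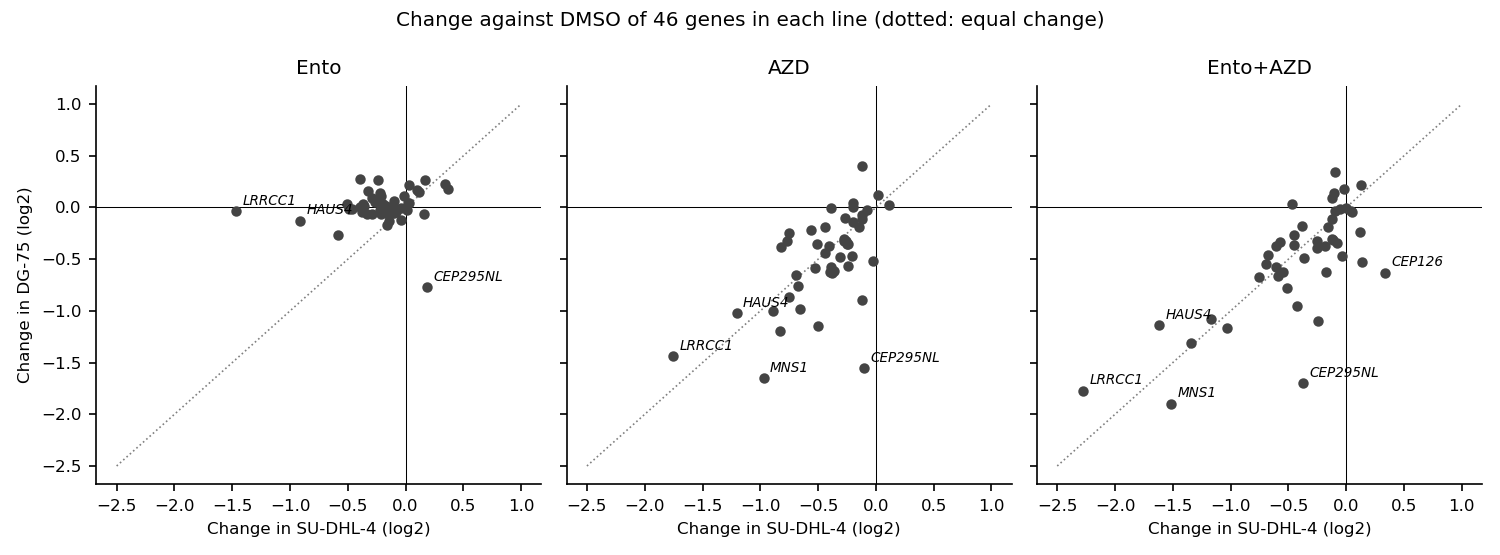
Change against DMSO (log2) of 46 of the 47 genes, with SU-DHL-4 on the horizontal and DG-75 on the vertical axis, under Ento, AZD and Ento+AZD, with a dotted line of equal change. Points spread along the dotted line under AZD and Ento+AZD, while under Ento LRRCC1 and HAUS4 lie low in SU-DHL-4 alone and CEP295NL in DG-75 alone.

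Ento alone set the lines apart in value for LRRCC1 but not in the test. In SU-DHL-4 the difference for LRRCC1 was -1.46 ± 0.29 (unadjusted p = 0.000271, adjusted p = 0.15), and in DG-75 it was -0.04 ± 0.37. The difference between these responses was -1.43 ± 0.52 (unadjusted p = 0.0128, adjusted p = 1). HAUS4 had -0.91 ± 0.18 in SU-DHL-4 (adjusted p = 0.15), where 1 of the 3 Ento arrays, replicate 2 at 5.28, lay far below the others at 6.73 and 6.94. At an unadjusted p under 0.05, 7 of the 47 genes were lower in SU-DHL-4, against 6.29% of all rows, while DG-75 had 1, against 1.61%. In the tests of a difference between the lines, 0 of the 47 genes passed for any treatment. The background there was 0.00782% of all rows for Ento, 0% for the response to AZD and 0.0352% for that to the combination. At an unadjusted p under 0.05 there were 6 genes for Ento, against 4.43% of all rows, 2 for AZD, against 6.16%, and 2 for the combination, against 6.51%.

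The combination was also set against each single agent. Against Ento, Ento+AZD lowered 5 called genes in DG-75, LRRCC1, MNS1, HAUS4, HAUS1 and CEP70, against 0.657% of all rows, and 6 passed with HAUS8, against 1.66%. Without 1 array this count was 0 when Ento replicate 1 or 2 or Ento+AZD replicate 1 or 2 was left out, and 7 without Ento replicate 3. In SU-DHL-4 MNS1 alone was called, against 0.0821% of rows, with a fall of 1.55 ± 0.21 (adjusted p = 0.0451), and it was not called when any 1 of these arrays other than Ento replicate 2 was left out. Against AZD, 0 genes passed in either line, with a background of 0.0313% for SU-DHL-4 and 0% for DG-75. At an unadjusted p under 0.05 SU-DHL-4 had 2 lower genes, against 3.63% of all rows, and 4 higher ones, against 3.4%, and DG-75 had 0 in either direction, against 4.03%.

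The 4 higher genes in SU-DHL-4 were CEP126, CEP85L, CEP135 and CEP290, which are named after their values were seen. CEP126, a microtubule-binding protein of the cilium base, was 5.74, 5.50 and 5.68 under DMSO, 4.35, 5.27 and 5.22 under AZD, and 5.83, 6.10 and 6.0 under Ento+AZD. The Ento+AZD arrays thus lay above the DMSO and AZD arrays, and they overlapped the Ento arrays, at 5.98, 4.93 and 6.06. Its difference between Ento+AZD and AZD was 1.03 ± 0.28 (adjusted p = 0.501), and those of CEP85L, CEP135 and CEP290 were 0.87 ± 0.21, 0.65 ± 0.19 and 0.56 ± 0.24, all without overlap and short of the threshold. Groups without overlap in this direction made up 4.15% of all rows. In DG-75 the same 4 differences were between 0.02 and 0.21. There CEP126 was 3.77, 3.76 and 4.02 under DMSO and 3.20, 3.12 and 3.33 under Ento+AZD. It thus lay below DMSO without overlap in that line, as did 14% of all rows.

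Under DMSO the lines differed in 14 of the 47 genes (29.8%), against 17.6% of all rows, and 8 were called (17%), against 7.2%. CEP70 was 2.18, 3.08 and 1.95 in the SU-DHL-4 arrays but 7.91, 7.62 and 7.84 in those of DG-75. The difference between the measured values was -5.38 ± 0.29 (adjusted p = 2.18e-12). All 12 SU-DHL-4 arrays lay between 1.83 and 3.08, and since no detection value was used, whether CEP70 was above background there is unknown and the difference may be a lower bound on its size. CEP295NL differed by -2.98 ± 0.25 (adjusted p = 4.71e-09) and MNS1 by -2.01 ± 0.46 (adjusted p = 0.00248). Among the other genes called lower in SU-DHL-4 were CEP97 and HAUS7, by 1.23 and 1.10 in size. CEP126 and CEP19, a centriole protein that starts cilium formation, were called higher, by 1.79 ± 0.26 and 1.41 ± 0.20. CEP112 averaged 2.38 (SU-DHL-4) and 2.17 (DG-75). With 1 line per disease, line, disease and culture cannot be told apart.

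**Figure D4:**
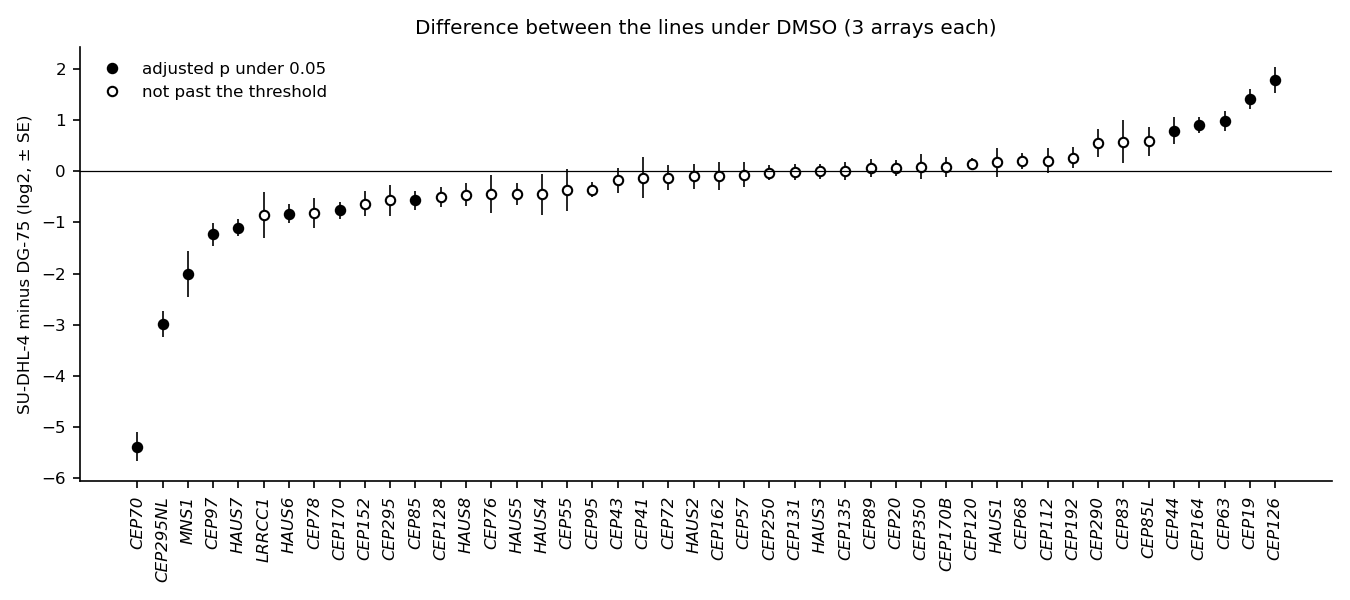
Difference between SU-DHL-4 and DG-75 under DMSO for 46 of the 47 genes (log2, points with SE bars from limma, 3 arrays per line), in order of size, with filled points for an adjusted p under 0.05. CEP70 lies apart at -5.38, which may be a lower bound in size since no detection value was used, and CEP126 is highest at 1.79.

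The genes that work beside these proteins were described through 46 other centrosome and spindle genes, all of them measured. Over both lines 14 fell under AZD, against 4.29% of all rows, and 0 rose, against 0.371%. Under Ento+AZD 19 fell, against 7.03%, and 1 rose, against 1.46%. The latter, the centrin gene CETN2, rose by 0.33 ± 0.08 (adjusted p = 0.0146), or 0.0505 without SU-DHL-4 DMSO replicate 3. The count under AZD was 5 lower without the replicate block, 10 lower and 2 higher after quantile normalization, 8 lower and 1 higher with array medians subtracted, and between 7 and 21 lower with 1 array left out. PLK4, the kinase that starts centriole duplication, fell by 0.86 ± 0.22 under AZD (adjusted p = 0.0261) and by 1.26 ± 0.22 under Ento+AZD (adjusted p = 0.000687). SASS6, which forms the cartwheel, fell by 0.58 ± 0.15 and 0.76 ± 0.15. PLK4 and SASS6 each passed under AZD in 5 of 12 fits that left out 1 array. STIL, its partner, fell by 1.05 ± 0.20 under Ento+AZD (adjusted p = 0.00148), with -0.67 ± 0.20 under AZD (adjusted p = 0.0516). The smallest p under Ento+AZD belonged to the mitotic kinase AURKA, at -1.19 ± 0.12, followed by PLK1 at -1.12 ± 0.16, the spindle factor TPX2 at -1.08 ± 0.15, the linker kinase NEK2 at -1.18 ± 0.17 and MZT1, a small subunit of γ-tubulin complexes, at -0.73 ± 0.12. The median of the 46 was -0.34 under AZD and -0.39 under Ento+AZD, beside -0.07 for all rows, and these became -0.19 and -0.25 after quantile normalization and -0.25 and -0.28 with array medians subtracted.

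Proliferation markers also fell, beside medians of -0.39 under AZD and -0.28 under Ento+AZD for the 47 genes. All 10 of a list with MKI67, PCNA, MCM2 and CDK1 fell over both lines under AZD and under Ento+AZD, with medians of -0.68 and -1.04, where 4.29% and 7.03% of all rows fell. Under AZD 2 of the 10 passed without the replicate block, 6 under either other scaling, and 6 without DG-75 AZD replicate 1, while under Ento+AZD all 10 passed in each alternative that was run. Their mean level in the SU-DHL-4 arrays was 9.23 to 9.72 under DMSO, 8.22 to 9.69 under Ento, 8.27 to 9.04 under AZD and 7.20 to 8.75 under Ento+AZD. In DG-75 it was 9.61 to 9.75, 9.62 to 9.71, 8.71 to 9.14 and 8.52 to 9.03 in the same order. The lowest SU-DHL-4 arrays of this list under Ento and Ento+AZD were again the second replicates, at 8.22 and 7.20. The part of proliferation in the changes of the 47 genes was not tested. T-cell and myeloid markers, 4 each, had no gene past the threshold in these comparisons.

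**Figure D5:**
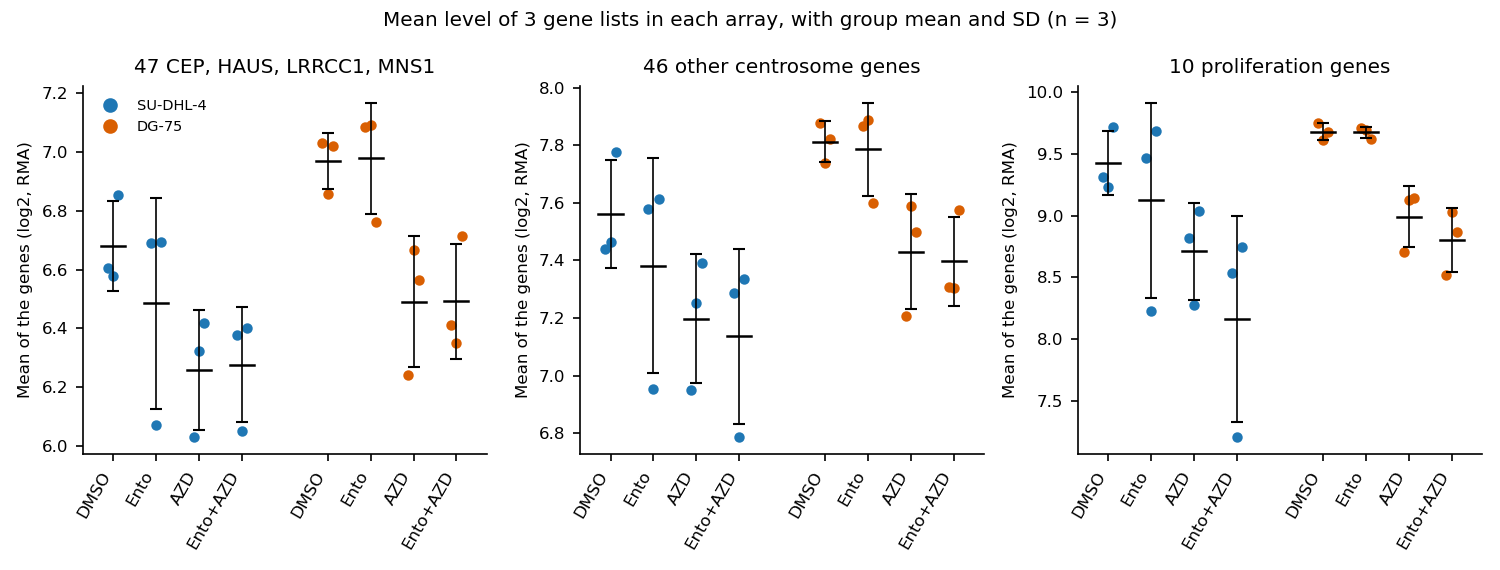
Mean level (log2) of the 47 genes, of 46 other centrosome genes and of 10 proliferation genes in each array, by line and treatment, with group mean and SD (n = 3). In all 3 panels the DG-75 arrays with AZD lie below those with DMSO, and the second SU-DHL-4 replicates of Ento and Ento+AZD lie lowest in their groups.

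Several values carry a limit of assignment. In RefSeq the following genes also overlap another coding gene: CEP63 (ANAPC13 and KY), CEP68 (RAB1A), CEP72 (TPPP), CEP76 (PSMG2 and SPIRE1), CEP83 (PLXNC1), CEP85L (PLN), CEP95 (DDX5), CEP126 (ANGPTL5), CEP128 (TSHR), CEP162 (MRAP2), CEP290 (RLIG1), CEP295 (TAF1D), HAUS3 (POLN) and HAUS7 (BGN). LRRCC1, HAUS1, HAUS4, HAUS6, HAUS8, CEP41, CEP55 and CEP152 have no such overlap.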

How the data were processed

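RNA of 24 cultures was measured on Clariom D arrays. The authors normalized the arrays by robust multi-array averaging (RMA) with limma and deposited 1 table of log2 values by gene symbol, without probe identifiers. The annotation version and genome build are not given in the sources used here, and no detection value was used, so that low values cannot be divided into expressed and not expressed. Groups and replicate numbers came from the labels, and 0 columns were left unused.

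The deposited log2 values were tested with limma 3.58.1 under R 4.3.3 by linear models with empirical Bayes variances. Each line was fitted on its 12 arrays with the replicate number as a block, in place of the batch term of the study's model. The labels do not say whether a number marks a shared culture day or batch. Both lines were fitted on 24 arrays with replicate number within line, which also gave the differences between the lines' responses. The DMSO contrast of the lines had no block. P-values were adjusted by Benjamini-Hochberg over 25575 rows, and called genes had an adjusted p under 0.05 and a change above 1 (log2). The code was tested on simulated data. The 3 arrays per group limit the precision.

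The 47 genes, their roles and the other gene lists were chosen with earlier results of these data known. All 47 enter the counts, medians and ranges, and 1 of them is not reported here by name or drawn as a point. Values in each array are given for LRRCC1, MNS1, up to 12 genes that passed under Ento+AZD with the smallest adjusted p, CEP295NL and genes set apart under DMSO. Overlaps and sequences came from RefSeq, in which all 47 symbols were found. Alternatives were another scaling (quantile normalization or median subtraction), no fold minimum, a filter on low rows, 1 row per symbol, a prior variance following the mean with robust estimation, other blocks, other arrays in the fit, and each array left out.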

Additional observations from a re-analysis of the deposited data

How the results depend on the processing

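The changes of the 47 genes that passed kept their direction under every alternative that was run. So did those of the other centrosome genes and proliferation genes that passed over both lines under AZD or Ento+AZD, for which the alternatives were added after seeing the data, although 139 of 1026 values lost the threshold. For the counts of the 47 genes called, the largest moves were as follows. Without the fold minimum, AZD over both lines had 16 instead of 4, Ento+AZD over both lines 18 instead of 7, and the lines under DMSO 14 instead of 8. Quantile normalization gave 0 for AZD in SU-DHL-4 (from 2), 0 for Ento+AZD against Ento in SU-DHL-4 (from 1), 0 for AZD in DG-75 (from 2), 2 for the combination against Ento in that line (from 5) and 2 for AZD over both lines (from 4). Subtraction of array medians gave 0 for AZD in SU-DHL-4, 0 for AZD in DG-75, 3 for Ento+AZD in DG-75 (from 7) and 1 for the combination against Ento in DG-75. AZD in DG-75 had 5 with low rows left out, 6 with a prior variance following the mean and 4 in 1 fit of 24 arrays, and Ento in SU-DHL-4 had 1 with that prior. The causes were not tested.

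Leaving out each array in turn, the genes called ranged from 0 to 4 for AZD and from 2 to 5 for Ento+AZD in SU-DHL-4, from 0 to 1 for Ento+AZD against Ento in that line, from 0 to 0 for AZD, from 0 to 7 for Ento+AZD and from 0 to 7 for the combination against Ento in DG-75, from 2 to 6 for AZD and from 5 to 7 for Ento+AZD over both lines, and from 7 to 9 between the lines under DMSO. AZD over both lines had 2 without SU-DHL-4 DMSO replicate 2. For single genes, 199 of 642 such values and 62 of 493 under other settings kept their direction but lost the threshold.

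Deviations from group means of same-numbered arrays correlated above 0.1 in 12 of 18 pairs in SU-DHL-4 (-0.111 to 0.394), where all 6 pairs of replicate 3 (0.146 to 0.263) and all 3 pairs of DMSO with AZD (0.12 to 0.205) did, and in 7 of 18 in DG-75 (-0.355 to 0.344). The best correlated array of another treatment had the same number in 26 of 36 cases in SU-DHL-4 and in 13 of 36 in DG-75. Each case offered 3 arrays, 1 of them with the same number, so that DG-75 lay close to a pick without regard to number. Without the replicate block 0 genes were called under AZD, 0 under Ento+AZD (from 5) and 0 for Ento+AZD against Ento in SU-DHL-4, while the same genes were called as with it in DG-75 (2 under AZD, 7 under Ento+AZD and 5 against Ento) and over both lines (4 under AZD and 7 under Ento+AZD).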
